A study of Mus musculus with 15 samples.

Results

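Nrgn, Cnih2 and Pou2af1 are 3 genes that stood out in mouse CD8+ T cells stimulated with immunofilaments, and their transcripts were followed here through all 15 libraries of the study. They were found by their symbols among the 17493 genes counted, and all 3 passed the filter on low counts, as did 10831 genes in all. The 3 were chosen on measured values: Nrgn and Cnih2 for large differences between immunofilaments at 22 h and unstimulated cells, Nrgn also for its difference from dendritic cells at 22 h, and Pou2af1 for its difference between both stimuli at 8 h. Values from those comparisons, and from any that share libraries with them, are therefore given as a description with no test, and p-values are given for the remaining comparisons only.

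The mice were female OT-1 animals (C57BL/6-Tg(TcraTcrb)1100Mjb/Crl), so that in every group the T cells, from spleen and lymph nodes, shared 1 transgenic receptor, which recognises ovalbumin peptide on MHC class I. The 5 groups of 3 libraries were unstimulated cells at 0 h and cells at 8 h and 22 h of either stimulus. Immunofilaments (IF, labelled IF-pMHC(SIIT)/IL-2) are filaments that bear MHC loaded with peptide, and interleukin-2, and were used at 5 ng/ml. Dendritic cells (DC), cultured in Flt3 ligand and loaded with SIITFEKL, were used at 20000 per well. Wells held 50000 T cells, and viable CD8+ CD103- cells were sorted before bulk RNA sequencing. The age of the mice is not given. The unstimulated group was taken at 0 h, so time in culture and stimulus cannot be told apart in a comparison with it. The labels name interleukin-2 for the filaments and not for the dendritic cells, so the carrier of the peptide and interleukin-2 cannot be told apart between IF and DC. The titles tag the replicates of every group Don1, Don2 and Don3. The labels do not say what the tag stands for, whether same-numbered libraries share animals or whether replicates came from separate animals, so p-values measure only the spread between these libraries.

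Nrgn encodes neurogranin, a small protein best known from the postsynaptic side of neurons, which binds calmodulin when calcium is low and releases it when calcium rises; its transcript is also abundant in platelets. Cnih2 encodes cornichon family AMPA receptor auxiliary protein, a membrane protein related to the cargo receptors that help other proteins leave the endoplasmic reticulum, and known mainly as a partner of AMPA-type glutamate receptors. Pou2af1 encodes OCA-B (also called BOB.1 or OBF), a coactivator without DNA-binding activity of its own that docks on the POU factors Pou2f1 and Pou2f2 at octamer sites; it is a hallmark of B cells, is needed for germinal centres, and is also induced in activated T cells.

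In the GENCODE vM21 annotation of GRCm38, Nrgn lies on the minus strand at chr9:37544492-37552904 and Pou2af1 on the plus strand at chr9:51213708-51240080, 13.7 megabases apart, and neither shares exonic bases with another gene. Cnih2 lies on the minus strand at chr19:5092868-5098521, where its last 14 exonic bases, chr19:5092868-5092881, are also exonic in Yif1a on the plus strand. How the counting used strand is not given in the sources used here, so reads from those bases could belong to either gene. Yif1a, which encodes a membrane protein of the early secretory pathway, had mean normalised counts between 34.0 and 59.9 CPM in the 5 groups and passed no comparison, so its order of groups was not that of Cnih2.

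The sequences just upstream of the 3 genes are shown so that genes chosen together can be compared for binding motifs in common. They are RefSeq promoter sequences of build GRCm38.p6, read 5′ to 3′ towards the gene, and end where the first annotated transcript of either RefSeq or GENCODE begins. Capitals mark the GC box (GGGCGG on either strand) and the CRE half-site (TGACG on either strand). Nrgn is printed from the minus strand of chr9:37552905-37552995, Cnih2 from the minus strand of chr19:5098522-5098771 and Pou2af1 from the plus strand of chr9:51213440-51213689.
Nrgn: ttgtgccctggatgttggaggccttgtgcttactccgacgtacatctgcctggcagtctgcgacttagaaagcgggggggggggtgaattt
Cnih2: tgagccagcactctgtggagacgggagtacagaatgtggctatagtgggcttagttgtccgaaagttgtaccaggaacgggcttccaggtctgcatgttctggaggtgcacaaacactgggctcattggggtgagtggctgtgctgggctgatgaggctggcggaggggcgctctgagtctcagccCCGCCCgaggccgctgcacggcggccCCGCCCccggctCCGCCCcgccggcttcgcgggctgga
Pou2af1: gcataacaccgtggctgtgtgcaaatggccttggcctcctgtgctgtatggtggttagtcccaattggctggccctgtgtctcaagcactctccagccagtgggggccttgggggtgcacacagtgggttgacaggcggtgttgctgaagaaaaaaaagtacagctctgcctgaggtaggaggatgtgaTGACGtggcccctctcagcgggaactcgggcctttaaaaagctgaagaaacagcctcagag
Of 7 motifs searched on both strands in the 250 bases before each RefSeq start, none matched in any of the 3 genes: AP-1 (TGANTCA, held by 6.75% of 32851 promoter windows of that length), the NFAT core (GGAAA, 55.6%), STAT (TTCNNNGAA, 7.02%), NF-kB (1.41%), the octamer (ATGCAAAT, 1.60%), EGR (GCGNGGGCG, 4.70%) and the E-box (CACGTG, 6.02%). The GC box and the CRE half-site were added after the sequences had been seen. The GC box, held by 32.7% of windows, occurred at 3 places before Cnih2 and at 1 place before Nrgn, in the stretch between both annotated starts that is not printed. The CRE half-site, held by 17.8% of windows, occurred at 1 place, before Pou2af1. The 3 windows thus shared no motif of those searched, and the absence of a match says only that these letters are not in this window.

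Total counts ranged from 2892874 to 19806730 per library, and 3 counts, taken as the detection floor, were worth 0.153 to 0.995 CPM. T cell identity was clear in every library: Cd3e, a subunit of the T cell receptor complex, was at 474 CPM or more and Cd8a at 419 CPM or more, and Cd4 had no counts in 14 of 15 libraries. Of the IF 22 h libraries, replicates 2 and 3 stood apart from all others by their mitochondrial ribosomal RNA, 0.179% and 0.146% of counts against 1.82% to 4.49% in the other 13 libraries. Replicate 1 of IF 22 h was within that range, so the values of the 3 genes that rest on IF 22 h, and the calls of other genes there, are also given for replicate 1 alone.

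Nrgn was a transcript of the late IF group. Replicates 1, 2 and 3 had 3.08, 5.42 and 8.38 CPM in unstimulated cells and 2.32, 11.3 and 5.89 CPM at IF 8 h. At DC 8 h the values were 0.495, 0.124 and 0.881 CPM, from 5, 1 and 6 counts. At IF 22 h they were 83.7, 228 and 168 CPM, and at DC 22 h 10.9, 19.2 and 4.02 CPM. All 3 IF 22 h libraries lay above each of the other 12, and all 3 DC 8 h libraries lay below each of the others, while unstimulated cells, IF 8 h and DC 22 h overlapped. The order of group means was therefore IF 22 h (160 ± 72.4, SD, n = 3), DC 22 h (11.4 ± 7.63), IF 8 h (6.50 ± 4.51), unstimulated (5.63 ± 2.65) and DC 8 h (0.500 ± 0.378 CPM), of which the middle 3 do not differ beyond their spread. Pooled over the group, the 12 counts of DC 8 h gave 0.481 CPM with an exact Poisson 95% interval of 0.248 to 0.840, which covers counting error only.

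**Figure D1:**
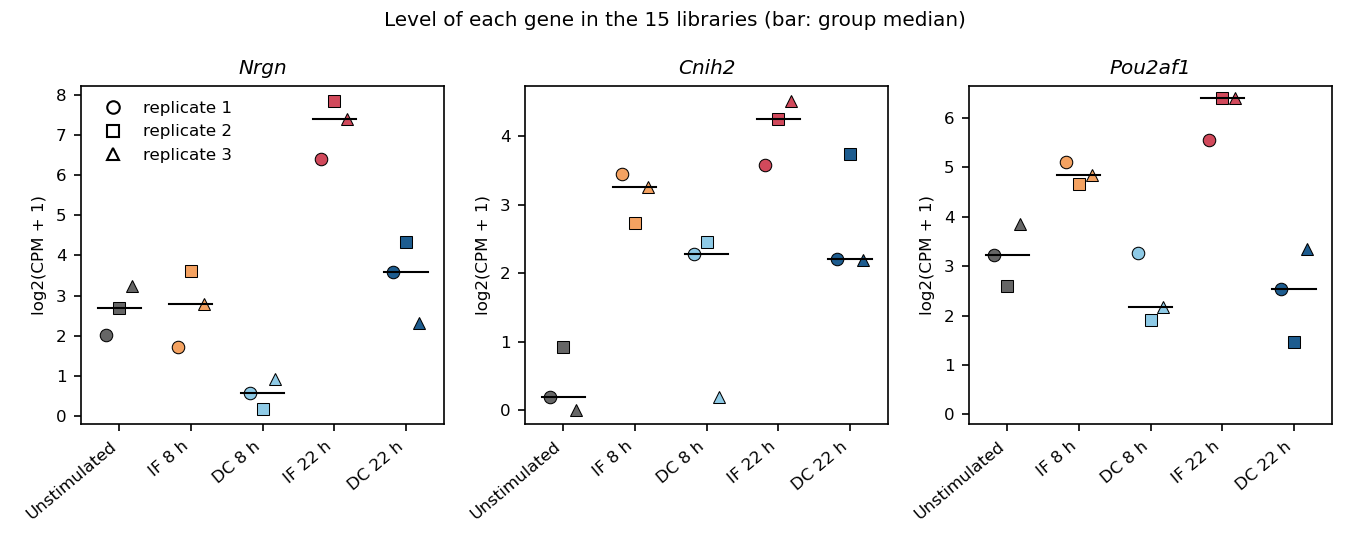
Levels of Nrgn, Cnih2 and Pou2af1 in each of the 15 libraries, as log2(CPM + 1) on the vertical axis, by group on the horizontal axis; circles, squares and triangles are replicates 1, 2 and 3 and the bar is the group median. IF 22 h is the highest group for all 3 genes, with replicate 1 the lowest of its libraries, and Cnih2 is the gene whose IF 22 h and DC 22 h libraries overlap.

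On the log2 scale, Nrgn with IF differed from unstimulated cells by 0.16 ± 0.64 (SE) at 8 h and by 4.86 ± 0.61 at 22 h. With DC it differed from them by -3.46 ± 0.83 at 8 h and by 1.05 ± 0.58 at 22 h. These 4 values share the unstimulated libraries and were not tested. Between 8 h and 22 h the difference was 4.71 ± 0.62 under IF and 4.50 ± 0.77 under DC, so the later time was higher by a similar factor under both stimuli. The IF to DC difference was 3.62 ± 0.84 at 8 h and 3.82 ± 0.56 at 22 h, and the difference between these was 0.20 ± 1.07, not tested. A comparison that shared no library with those that chose Nrgn was IF against DC at 8 h. In it the groups did not overlap (lowest IF library 2.32, highest DC library 0.881 CPM). With edgeR's quasi-likelihood test and Benjamini-Hochberg adjustment over all genes it missed the threshold of 0.05, with an adjusted p of 0.0592 and a 95% interval of the log2 difference from 1.83 to 5.40. In that comparison 0.231% of the genes tested were called higher and 0.434% lower. The call turned on the setting: the adjusted p was 0.00141 with DESeq2, 3.65e-11 with no filter on low counts and 0.0419 without IF 8 h replicate 1, and up to 0.271 with another library left out. The difference also passed with the replicate block. The IF libraries thus lay above the DC libraries in Nrgn at both times, and at 8 h the DC values lay below the unstimulated ones while the IF values lay among them.

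Cnih2 was near the detection floor before stimulation and higher under both stimuli. Its unstimulated libraries had 1, 5 and 0 counts, or 0.147, 0.904 and 0 CPM. IF 8 h had 9.99, 5.64 and 8.57 CPM and DC 8 h 3.86, 4.47 and 0.147 CPM, the last from 1 count. IF 22 h had 11.0, 18.2 and 21.8 CPM and DC 22 h 3.64, 12.4 and 3.59 CPM. Both IF groups lay above all unstimulated libraries, as did DC 22 h, whereas DC 8 h overlapped them through replicate 3. IF 22 h lay above IF 8 h, the closest pair being 11.0 and 9.99 CPM, but overlapped DC 22 h, where replicate 2 exceeded IF 22 h replicate 1. The order of means was IF 22 h (17.0 ± 5.52, SD, n = 3), IF 8 h (8.07 ± 2.22), DC 22 h (6.54 ± 5.06), DC 8 h (2.83 ± 2.34) and unstimulated (0.350 ± 0.485 CPM), and IF 8 h overlapped DC 22 h, which overlapped DC 8 h.

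Against unstimulated cells the log2 difference of Cnih2 with IF was 4.44 ± 0.98 at 8 h and 5.50 ± 0.97 at 22 h. With DC it was 2.95 ± 1.01 at 8 h and 4.12 ± 0.97 at 22 h, and these 4 values are described and not tested. They rest on 6 unstimulated counts, 5 of them in replicate 2. Without that library they became 6.29 and 7.36 with IF and 4.81 and 5.99 with DC. Pooled over the group, the unstimulated level was 0.361 CPM with an exact Poisson 95% interval of 0.132 to 0.785. The difference of Cnih2 between IF and DC was 1.49 ± 0.73 at 8 h, where the lowest IF library (5.64 CPM) lay above the highest DC library (4.47 CPM), and 1.38 ± 0.68 at 22 h, where the groups overlapped. At 8 h, where the choice of Cnih2 used no library, edgeR's adjusted p was 0.628 with a 95% interval of -0.05 to 3.04, so neither no difference nor a difference of several fold lay outside it. DC at 22 h against DC at 8 h differed by 1.17 ± 0.71 with an adjusted p of 0.699 and an interval of -0.34 to 2.68. In the latter comparison 0.379% of genes were called higher and 0.102% lower. From IF 8 h to IF 22 h Cnih2 differed by 1.06 ± 0.69, against 0.637% of genes called higher and 0.48% lower in that comparison.

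Pou2af1 was high with IF at both times, and with DC its libraries overlapped the unstimulated ones. Unstimulated libraries had 8.37, 5.06 and 13.5 CPM. IF 8 h had 33.5, 24.2 and 27.6 CPM and DC 8 h 8.62, 2.73 and 3.52 CPM. IF 22 h had 45.9, 83.7 and 83.4 CPM and DC 22 h 4.78, 1.77 and 9.23 CPM. All 6 IF libraries lay above all 9 others, IF 22 h lay above IF 8 h, and both DC groups overlapped the unstimulated libraries and each other. The order of means was IF 22 h (71.0 ± 21.7, SD, n = 3), IF 8 h (28.4 ± 4.73), unstimulated (8.98 ± 4.25), DC 22 h (5.26 ± 3.75) and DC 8 h (4.96 ± 3.19 CPM), of which the lowest 3 do not differ beyond their spread.

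The comparisons of Pou2af1 at 22 h used none of the libraries of the 8 h comparison that chose it. Earlier results of these data were known when the gene was chosen, so these tests are not independent support. Against DC at 22 h, Pou2af1 was higher with IF by 3.73 ± 0.52 on the log2 scale (13.3-fold, edgeR adjusted p = 0.000849), where 1.23% of genes were called higher and 1.2% lower. Against unstimulated cells it rose at IF 22 h by 3.0 ± 0.51 (8.00-fold, edgeR adjusted p = 0.00182), where 2.63% of genes were called higher and 3.44% lower. In DC 22 h it differed from unstimulated cells by -0.73 ± 0.51 with an edgeR adjusted p of 0.422 and a 95% interval of -1.81 to 0.35, where 3.41% of genes were called higher and 4.35% lower. The first and second of these comparisons share the IF 22 h libraries, and the second and last the unstimulated ones. With IF 22 h represented by replicate 1 alone, which assumes that this library varies like the other groups, the differences from DC 22 h and from unstimulated cells were 3.10 and 2.37 and the adjusted p 0.118 and 0.109. Calls over all genes fell at the same time from 263 to 8 and from 658 to 99. Leaving out any single library of the groups compared kept both calls, with adjusted p of at most 0.00773 against DC 22 h and 0.0167 against unstimulated cells.

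At 8 h, the comparison that chose Pou2af1, it differed between IF and DC by 2.50 ± 0.51. Against unstimulated cells at 8 h it differed by 1.69 ± 0.50 with IF, where 3.04% of genes were called higher and 4.72% lower, and by -0.81 ± 0.52 with DC, where 2.75% were called higher and 4.07% lower. From 8 h to 22 h Pou2af1 differed by 1.31 ± 0.47 under IF and by 0.08 ± 0.51 under DC, and the IF to DC difference grew by 1.24 ± 0.69, not tested. In each of the 8 comparisons the median log2 difference of all genes lay between -0.02 and 0.04. Since these were bulk samples, a lower level can mean fewer cells with the transcript or less of it in each cell, and these cannot be told apart.

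**Figure D2:**
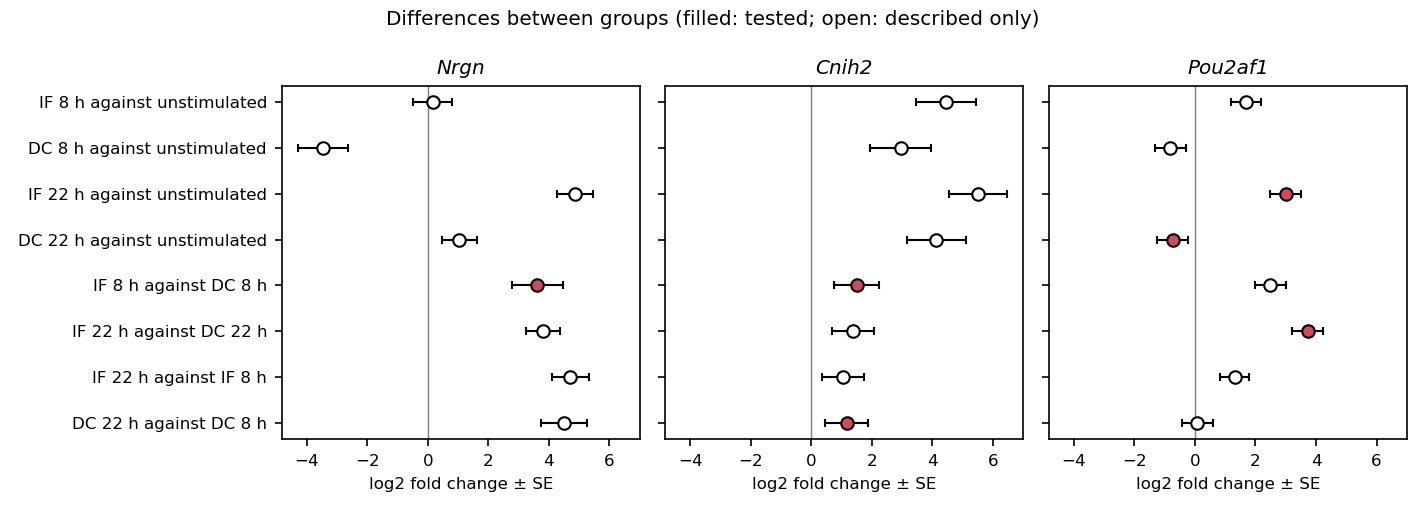
Log2 fold changes of the 3 genes with their SE (horizontal axis) in the 8 comparisons of groups (vertical axis), from 1 edgeR fit to all 15 libraries; filled points were tested and open points are descriptions, because their libraries took part in choosing the gene. Nrgn has like values for IF 22 h against IF 8 h and for DC 22 h against DC 8 h (4.71 and 4.50), whereas Pou2af1 has 1.31 and 0.08.

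How far each gene was concentrated in IF at 22 h was summarised by the share of its 5 summed group means that lay in that group, a value whose median over the 10831 genes was 19.7%. Nrgn had 86.9% of its summed means in IF 22 h, the 3rd highest share of all genes tested. Pou2af1 had 59.8% and ranked 17, and Cnih2 had 48.8% and ranked 42. Over both IF groups the shares were 90.5% for Nrgn, 83.8% for Pou2af1 and 72.0% for Cnih2, against a median of 39.6% over all genes. The mean of the highest group exceeded that of the next by 14.0 times for Nrgn, where the next was DC 22 h, by 2.50 times for Pou2af1 and by 2.10 times for Cnih2, where the next was IF 8 h. The ratio of IF to DC means for Cnih2 was 2.85 at 8 h, without overlap, and 2.60 at 22 h, with overlap. The share of all genes whose groups do not overlap is not given here. A lack of overlap between groups of 3 libraries is therefore a description throughout and not a test. With replicate 1 alone as IF 22 h the shares in that group were 77.7% for Nrgn, 49.1% for Pou2af1 and 38.1% for Cnih2. The genes were chosen for high IF 22 h or IF 8 h values, so the ranks describe them and do not test them.

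**Figure D3:**
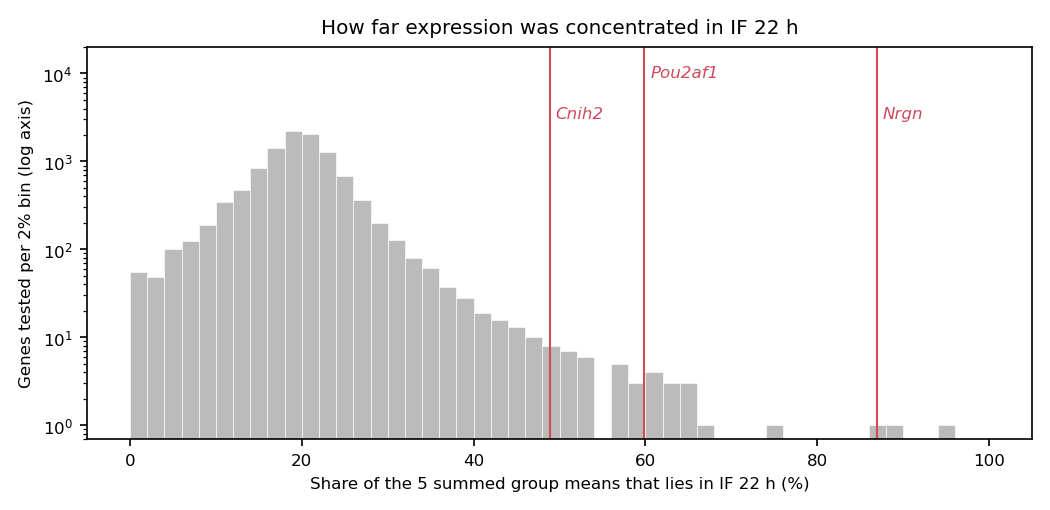
Share of the 5 summed group means that lay in IF 22 h (horizontal axis, %) for all 10831 genes tested, as the number of genes per bin on a log axis (vertical), with red lines at the 3 genes. Most genes lie near the median of 19.7%, and Nrgn at 86.9% is close to the far end of the distribution.

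In all 3 genes replicate 1 of IF 22 h pointed the same way as replicates 2 and 3 but lay lower. It reached 42.3% of the mean of the other replicates for Nrgn, 54.8% for Cnih2 and 55.0% for Pou2af1. For each gene it lay above every IF 8 h library and below both other IF 22 h libraries. It exceeded every library outside IF 22 h for Nrgn (83.7 against at most 19.2 CPM) and for Pou2af1 (45.9 against at most 33.5 CPM), but not for Cnih2 (11.0 against 12.4 CPM in DC 22 h replicate 2). Over all genes tested the median log2 ratio of replicate 1 to the mean of the others was -0.05. Of 311 genes called higher at IF 22 h than in unstimulated cells from replicates 2 and 3, replicate 1 lay below both for 223, or 71.7%, with a median ratio of -0.35, and choosing genes by replicates 2 and 3 itself favours this. Replicate 1 was thus also lower in other genes chosen in this way. The log2 ratios of Nrgn, Cnih2 and Pou2af1 were -1.24, -0.87 and -0.86, each below that median. Because of the choice, these values cannot show whether a lower replicate 1 is particular to the 3 genes. With replicate 1 alone as IF 22 h, Nrgn differed from unstimulated cells by 3.92 and from DC 22 h by 2.88, and Cnih2 by 4.86 and 0.74. From IF 8 h the differences were then 3.75 for Nrgn, 0.43 for Cnih2 and 0.69 for Pou2af1. Beyond the 3 genes, the pathway lists described next held 9 calls at IF 22 h against unstimulated cells. None of these 9 passed with replicate 1 alone (edgeR adjusted p of 0.143 to 0.496), and each kept its direction. With that 1 library edgeR called 99 of all genes in place of 658, so few calls could pass. The log2 differences were then 1.61 for Cxcr5, 1.80 for Bcl6, 1.05 for Rcan3, 1.58 for Camk2n1, 0.85 for Cnih4, 0.49 for Sec24c and -0.63 for Tmed9. Replicates 2 and 3 also carried the low mitochondrial ribosomal RNA, and whether that is linked to the higher levels was not tested.

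Calmodulin is the calcium sensor that neurogranin binds, and of its genes Calm3 was lower at IF 8 h than in unstimulated cells (-0.62 ± 0.18, edgeR adjusted p = 0.0459). Calm2 passed in none of the 4 comparisons of stimulated with unstimulated cells, with -0.02 ± 0.14 at IF 22 h. The Calm3 call held in 4 of 13 alternatives, which were other scalings, no filter on low counts, DESeq2, only the groups compared, the replicate block, each library left out and IF 22 h replicate 1 alone. Rcan3, an inhibitor of the calmodulin-dependent phosphatase calcineurin, was higher with IF at 8 h (1.28 ± 0.36, adjusted p = 0.0401) and 22 h (1.37 ± 0.35, adjusted p = 0.0292), calls that held in 5 and 7 of 13 alternatives. Camk2n1, an inhibitor of calmodulin-dependent kinase II, was higher at IF 22 h (2.16 ± 0.59, adjusted p = 0.0378, held in 6 of 13 alternatives), at 5.83, 14.8 and 5.56 CPM against 1.47, 1.45 and 3.03 CPM unstimulated. Among calls in the other direction were Iqgap2, a scaffold protein with calmodulin-binding IQ motifs, at IF 8 h (-1.28 ± 0.34, adjusted p = 0.0321), Camk2d, a subunit of calmodulin-dependent kinase II, at DC 8 h (-0.84 ± 0.21, adjusted p = 0.0199) and Cabin1, a calcineurin inhibitor, at DC 22 h (-0.69 ± 0.18, adjusted p = 0.0249). These held in 8, 8 and 6 of 13 alternatives. Of 25 tested calmodulin and effector genes, edgeR called 1 higher and 3 lower than unstimulated at IF 8 h, where 3.04% of all genes were higher and 4.72% lower. At IF 22 h it called 2 higher and 1 lower, against 2.63% and 3.44% of all genes. With DC 0 were higher and 2 lower at either time, against 2.75% and 4.07% at 8 h and 3.41% and 4.35% at 22 h. Between IF and DC, edgeR called 0 of the 25 at either time, where 0.231% of all genes were higher and 0.434% lower at 8 h and 1.23% and 1.2% at 22 h, with 1 and 3 at an unadjusted p under 0.05 and DESeq2 calling 0 and 1 at 8 h and 22 h. Gap43 and Pcp4l1, which like neurogranin carry an IQ motif, had at most 0.332 and 0.715 CPM in any library.

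The relatives of Cnih2 showed a smaller difference of the same kind in 1 gene. Cnih4, a cornichon that carries receptors out of the endoplasmic reticulum, had 17.0, 15.7 and 14.2 CPM unstimulated, 37.3, 33.5 and 30.3 CPM at IF 8 h and 28.3, 28.0 and 32.8 CPM at IF 22 h. It rose by 1.10 ± 0.19 at IF 8 h (edgeR adjusted p = 0.00205) and by 0.92 ± 0.19 at IF 22 h (adjusted p = 0.0076), with no overlap of either group with the unstimulated one, and these calls held in 13 and 11 of 13 alternatives. DC groups were lower than IF for Cnih4 without overlap, at 20.0 to 24.7 CPM at 8 h and 19.4 to 22.8 CPM at 22 h, but the gene passed no IF to DC comparison. Cnih3, the closest relative of Cnih2 in AMPA receptor assembly, had 33 counts in all 15 libraries. Of these, 12, 0 and 17 were in IF 22 h replicates 1, 2 and 3 (1.43, 0 and 0.868 CPM), and no other library had more than 2. Cnih3 did not pass the filter and was not tested, and Cnih1 was not matched by symbol. Of the AMPA receptor subunits, Gria1 had no counts, and Gria2 and Gria4 had 13 and 12 counts in all. Gria3 had group means of 3.09 to 7.96 CPM. Of 6 tested genes in the cornichon and AMPA receptor list, Cnih4 was the single one that edgeR called, at both IF times against unstimulated, where 3.04% and 2.63% of all genes were called higher. At IF 22 h against DC 22 h edgeR called 0 of the 6, where 1.23% of all genes were higher and 1.2% lower. Of the 6, 3 had an unadjusted p under 0.05 and 1 was called by DESeq2. Of 25 genes of export from the endoplasmic reticulum, edgeR called Sec24c, a cargo adaptor of the export coat, higher (0.55 ± 0.15, adjusted p = 0.04) and Tmed9, a cargo receptor, lower (-0.67 ± 0.18, adjusted p = 0.0352) at IF 22 h, where 2.63% of all genes were higher and 3.44% lower. These calls held in 5 and 7 of 13 alternatives. At DC 22 h it called 2 lower, Tmed9 (-0.86 ± 0.18, adjusted p = 0.00717) and Yif1b (-0.93 ± 0.26, adjusted p = 0.035), a relative of Yif1a, where 4.35% of all genes were lower. These held in 11 and 5 of 13 alternatives. At IF 8 h and DC 8 h edgeR called 0 of the 25, where 3.04% and 2.75% of all genes were higher and 4.72% and 4.07% lower, with 2 at an unadjusted p under 0.05 at either and 1 and 2 called by DESeq2.

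Pou2f1 and Pou2f2, the POU factors on which OCA-B docks, had other orders of groups than Pou2af1. Pou2f2 had 28.0, 21.0 and 31.0 CPM unstimulated, 97.6, 85.2 and 102 CPM at IF 8 h and 73.7, 61.4 and 66.7 CPM at DC 8 h. It rose at IF 8 h (1.83 ± 0.42, edgeR adjusted p = 0.0135), and at DC 8 h it had a difference of 1.34 ± 0.41 that missed the threshold (adjusted p = 0.0602), without overlap. At IF 22 h its libraries split, with 102 CPM in replicate 1 against 32.1 and 22.4 CPM in replicates 2 and 3, and DC 22 h had 53.8, 32.4 and 30.4 CPM. Replicate 1 of IF 22 h was thus at the IF 8 h level for Pou2f2, and at 22 h neither stimulus passed (adjusted p = 0.186 and 0.458). Pou2f1 had group means of 25.2 to 41.6 CPM and passed in no comparison. Among 13 tested genes that OCA-B is known to act with or on in B cells, Bcl6, a transcriptional repressor of germinal centres, rose at IF 8 h (2.16 ± 0.52), IF 22 h (1.82 ± 0.51) and DC 22 h (2.04 ± 0.51), with edgeR adjusted p of 0.0184, 0.0431 and 0.021, held in 10, 6 and 9 of 13 alternatives. Spib, a transcription factor of B cells and plasmacytoid dendritic cells, had the largest called differences of the list. It had 0, 0 and 0.233 CPM unstimulated and rose to 3.86, 3.97 and 8.66 CPM at DC 8 h (6.14 ± 1.25, adjusted p = 0.0045) and to 2.16, 2.43 and 1.79 CPM at DC 22 h (4.78 ± 1.29, adjusted p = 0.0218). These calls rest on 1 unstimulated count and held in 13 and 11 of 13 alternatives. With IF, Spib was at 0.663 CPM or less at 8 h and at 0.595, 0.956 and 2.19 CPM at 22 h. Cd79b, a subunit of the B cell receptor complex, was lower at DC 8 h (-1.59 ± 0.43, adjusted p = 0.0327) and Ets1, a transcription factor of lymphocytes, lower at DC 22 h (-0.65 ± 0.16, adjusted p = 0.0175), held in 6 and 8 of 13 alternatives. Cxcr5, a chemokine receptor that guides cells to B cell follicles, rose at IF 22 h (1.43 ± 0.33, adjusted p = 0.0177) and DC 8 h (1.15 ± 0.33, adjusted p = 0.0479), held in 10 and 5 of 13 alternatives. From IF 8 h to IF 22 h Cxcr5 rose by 1.47 ± 0.34 (adjusted p = 0.0461), from 11.1, 8.29 and 3.75 CPM to 24.5, 20.1 and 20.5 CPM, with replicate 1 here the highest. That call held in 5 of 13 alternatives and was lost, for example, with library size alone (adjusted p = 0.0527), the replicate block (0.059) or only both groups in the fit (0.0812), and the difference was 1.66 (0.528) with replicate 1 alone. Ciita, the activator of MHC class II genes, was lower at IF 22 h than at DC 22 h (-3.84 ± 1.02, adjusted p = 0.0483), from 5 counts in all at IF 22 h, and lower than in unstimulated cells (-3.80 ± 1.03, adjusted p = 0.0316). The calls held in 5 and 7 of 12 alternatives, and the first was lost with the replicate block (adjusted p = 0.0719) and with replicate 1 alone (0.382). Of the 13 genes edgeR called 1 between the stimuli at 22 h, where 1.23% of all genes were higher and 1.2% lower, with 4 at an unadjusted p under 0.05 and 2 called by DESeq2. Against unstimulated cells it called 1 higher and 0 lower at IF 8 h, where 3.04% of all genes were higher and 4.72% lower. In each of the other 3 groups it called 2 higher and 1 lower, where 2.63% to 3.41% of all genes were higher and 3.44% to 4.35% lower. None of the named list genes past the threshold changed direction under the other scalings. These shifted the median log2 difference of all genes by at most 0.33, less than the size of any of these calls. A change of direction was therefore hardly possible.

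Because OCA-B marks B cells, their genes were measured in the same libraries. Of 20 B cell markers 15 were measured, and their summed level was 31.8 to 36.8 CPM in unstimulated libraries. With IF it was 11.6 to 51.4 CPM at 8 h and 36.8 to 61.3 CPM at 22 h. With DC it was 14.2 to 32.3 CPM at 8 h and 12.3 to 34.1 CPM at 22 h. The sum was thus higher at IF 22 h than at DC 22 h without overlap, as Pou2af1 was, while at 8 h the groups overlapped. Of the defining markers, Ebf1 had no counts in 14 of 15 libraries, Pax5 was not matched by symbol, and Ms4a1 was at 0.931 CPM or less in every library. Cd79a, a subunit of the B cell receptor complex, had 3.21, 6.45 and 5.31 CPM at IF 22 h and 0.683, 0.111 and 0.427 CPM at DC 22 h. It had 0.294, 1.45 and 6.75 CPM in unstimulated cells, 1.61, 2.65 and 2.41 CPM at IF 8 h and 0.099, 0.373 and 4.85 CPM at DC 8 h. The library with the most Cd79a was also the one with the most Pou2af1 in unstimulated cells and at IF 22 h, and was another one in the other 3 groups. EdgeR called 0 of the 10 tested B cell markers between IF and DC at 22 h, where 1.23% of all genes were higher and 1.2% lower, with 2 at an unadjusted p under 0.05 and 1 called by DESeq2. Sdc1, a plasma cell marker that other cells also carry, was higher at IF 22 h than at DC 22 h (4.99 ± 1.19, edgeR adjusted p = 0.0282, held in 7 of 13 alternatives and 0.665 with replicate 1 alone), at 2.14, 6.10 and 3.27 CPM against 0.114, 0.221 and 0 CPM. At 8 h Sdc1 had 2.85, 2.32 and 6.43 CPM with IF and 0.396, 0 and 0.881 CPM with DC. There edgeR called 0 of the 3 tested plasma cell markers between IF and DC, where 0.231% of all genes were higher and 0.434% lower. The part of B or plasma cells in the Pou2af1 differences was not tested.

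**Figure D4:**
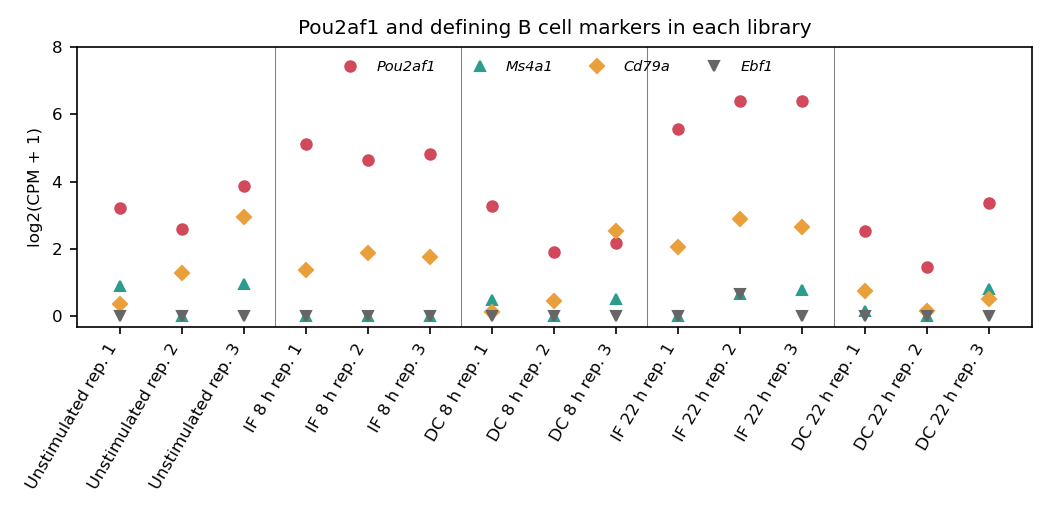
Pou2af1 and 3 defining B cell markers in each of the 15 libraries (horizontal axis), as log2(CPM + 1) on the vertical axis; levels of different genes are not compared. Ebf1 and Ms4a1 stay near 0 in all libraries, while Cd79a is above its DC 22 h values in all 3 IF 22 h libraries.

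Platelet genes were checked because Nrgn is a platelet transcript. Of 14 platelet markers 10 were measured, and their sum was 29.8 to 40.7 CPM in unstimulated libraries, 29.6 to 31.8 at IF 22 h and 16.0 to 27.5 at DC 22 h. At 8 h the sum was 13.7 to 25.9 CPM with IF and 7.33 to 21.1 CPM with DC. Nearly all of it was Itgb3, an integrin subunit that other cells also carry. EdgeR called Itgb3 lower at DC 8 h than in unstimulated cells (-1.21 ± 0.33, adjusted p = 0.0345), held in 6 of 13 alternatives. Of the defining markers, Pf4 was at 0.868 CPM or less at IF 22 h against up to 3.96 CPM unstimulated and 0.0855 to 4.78 CPM at DC 22 h. At IF 22 h Ppbp was at 0.051 CPM or less and Itga2b at 1.43 CPM or less, and Gp9 was not matched by symbol. The platelet sum was thus higher at IF 22 h than at DC 22 h without overlap, as Nrgn was, and overlapped the unstimulated sum. The part of platelets in the Nrgn difference was not tested. The 8 neuron markers summed to at most 5.02 CPM at IF 22 h and 17.2 CPM in any library. The 21 dendritic cell markers summed to 533 to 758 CPM at IF 22 h and 642 to 921 CPM at DC 22 h, which overlapped. Of 16 tested, edgeR called 1, Fscn1, higher at IF 22 h than at IF 8 h (5.59 ± 1.08, adjusted p = 0.0178) and 0 lower. In that comparison 0.637% of all genes were higher and 0.48% lower. Fscn1 means were 0.489 CPM at IF 8 h, 23.7 CPM at IF 22 h and 85.1 CPM at DC 22 h. With replicate 1 alone the Fscn1 difference was 3.54. Of the same 16, edgeR called 1 higher and 3 lower at IF 22 h than at DC 22 h, where 1.23% of all genes were higher and 1.2% lower. Itgax, an integrin subunit, was higher (2.32 ± 0.46, adjusted p = 0.0124), and Ccl22, a chemokine (-2.93 ± 0.62, adjusted p = 0.0188), Cd83, a marker of mature dendritic cells (-2.36 ± 0.51, adjusted p = 0.0201), and Ciita were lower. With replicate 1 alone the differences were 1.83 for Itgax, -3.65 for Ccl22 and -3.64 for Cd83, with adjusted p of 0.44, 0.362 and 0.147. At 8 h the dendritic cell markers summed to 408 to 670 CPM with IF and 1166 to 1465 CPM with DC, which did not overlap. EdgeR called 0 higher and 5 lower with IF, where 0.231% of all genes were higher and 0.434% lower. In unstimulated libraries the dendritic cell markers summed to 879 to 1597 CPM, which overlapped the sum of DC 8 h. The summed 11 measured T cell markers ranged from 10990 to 11892 CPM in unstimulated libraries and from 5036 to 7752 CPM in the stimulated ones. Of 10 tested T cell markers, edgeR called 6 to 9 lower in each comparison with unstimulated cells, where 3.44% to 4.72% of all genes were lower. At IF 22 h against DC 22 h it called 4 higher, namely Cd5, Cd2, Cd3g and Cd3e (0.70 to 0.82), and 0 lower, and at 8 h 1 higher, Cd5 (0.97), and 0 lower, where 0.231% of all genes were higher. With replicate 1 alone the 4 called at 22 h had differences of 0.36 to 0.80 with adjusted p of 0.398 to 0.975. The T cell markers called at 22 h thus moved in the same direction as Nrgn and Pou2af1. Whether the shifts of dendritic and T cell markers are linked to the differences of the 3 genes was not tested.

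The 3 genes were not close copies of each other in pattern: over the 15 libraries, which share groups, Pearson's r of log2 CPM was 0.66 for Nrgn and Pou2af1, 0.50 for Nrgn and Cnih2 and 0.48 for Cnih2 and Pou2af1, given as a description. The genes most like each were taken as the 5 with the highest r among the 10831 genes over the same 15 libraries, so their likeness in group order follows from the choice. For Pou2af1 the first was Cd28 (r of 0.93), the costimulatory receptor of T cells. The others were Slc26a11 (0.93), an anion transporter, Klrk1 (0.91), which encodes the activating receptor NKG2D, Ccl9 (0.89), a chemokine, and Zfp512 (0.89), a zinc finger protein. Cd28 had 197, 148 and 211 CPM unstimulated. With IF it had 412, 375 and 274 CPM at 8 h and 498, 554 and 546 CPM at 22 h, and with DC 135, 121 and 134 CPM at 8 h and 129, 87.3 and 89.9 CPM at 22 h. Like Pou2af1, Cd28 had all 6 IF libraries above all 9 others.

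For Nrgn the closest were Dck (0.86), the kinase that salvages deoxycytidine, Tbc1d2b (0.85), a regulator of Rab GTPases, Sptlc1 (0.85), a subunit of the first enzyme of sphingolipid synthesis, Endod1 (0.85), an endonuclease-domain protein, and Dnajc9 (0.84), a histone-binding cochaperone. None of these came near the range of Nrgn: the group means of Dck ran from 17.7 CPM at DC 8 h to 29.0 CPM at IF 22 h and those of Endod1 from 4.52 CPM to 18.7 CPM in the same groups. For Cnih2 the closest were mt-Tt (0.93), the mitochondrial threonine tRNA, Mrpl44 (0.91), a protein of the mitochondrial ribosome, Cyp51 (0.89), an enzyme of cholesterol synthesis, Sh3bp2 (0.88), a signalling adaptor, and Bcat1 (0.88), which transaminates branched-chain amino acids. All 5 had their lowest group mean in unstimulated cells, as Cnih2 had. Ranking by Spearman's rho kept 3 of the 5 for Nrgn, 1 for Cnih2 and 3 for Pou2af1, and leaving out IF 22 h replicate 1 kept 3, 4 and 4.

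**Figure D5:**
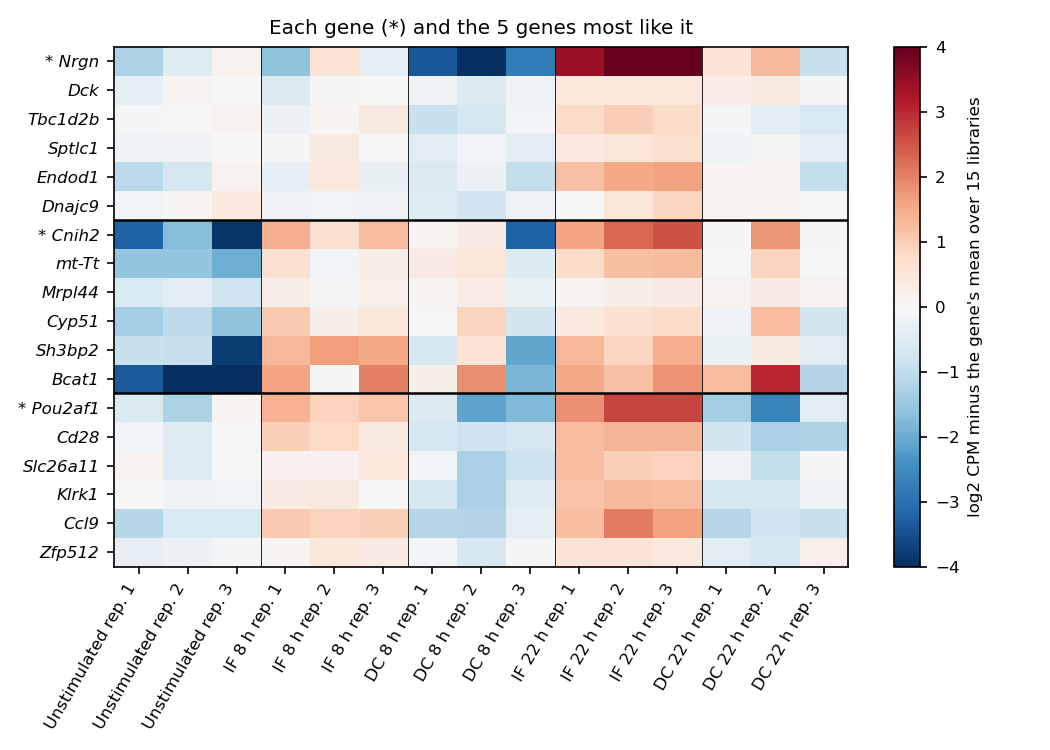
Log2 CPM minus each gene's mean over the 15 libraries (colour; the scale ends at -4 and 4) for the 3 genes, marked with an asterisk, and the 5 genes most like each (rows), by library (columns). The genes like Pou2af1 are highest at IF 22 h and low with DC, those like Cnih2 are low in the 3 unstimulated libraries, and those like Nrgn vary far less than Nrgn itself.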

How the data were processed

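Bulk RNA was measured in 15 libraries of sorted T cells. Per the labels' protocols, an adapted CEL-seq method primed and barcoded RNA at its poly(A) end and amplified it by in vitro transcription, so a count reflects the 3′ end of a transcript and amplified reads need not be independent molecules. The authors deposited whole-number counts per gene without normalization, per the values in the files. BWA and mm10 are named in the submitters' processing notes; the counting program, annotation, use of strand and use of molecular identifiers are not given in the sources used here.

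The counts went into edgeR 4.0.16 (limma 3.58.1) under R 4.3.3. filterByExpr (minimum count 10, minimum total 15) kept 10831 of 17493 genes, libraries were scaled by TMM, and 1 quasi-likelihood model of 5 group means was fitted to all 15 libraries; p-values are two-sided and adjusted by Benjamini-Hochberg over all genes, with a threshold of 0.05. Log2 fold changes use a prior count of 0.125, likeness a log2 CPM with a prior count of 2. CPM (edgeR's cpm, on the TMM-scaled total) were computed here from the deposited counts. The steps were tested on simulated data. Alternatives were DESeq2 1.42.0, other scalings, no filter, only the groups compared, a replicate block and leaving out each replicate.

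The 3 genes, the gene lists and the markers were chosen with earlier results of these data known. Besides these, the text names every measured octamer gene, the cornichons, Yif1a, Calm2, Calm3, Gap43, Pcp4l1, up to 3 list genes per comparison with the smallest p past the threshold, the 5 genes most like each member, and defining markers; Cd3e, Cd8a, Cd4, Itgb3, Gria1, Gria2, Gria3, Gria4, Ppp2r1b, Rab1b and Tbrg1 fall outside that rule and were chosen after their values were seen. Some genes that the rule names are not reported here. Replicate numbers are shared by all groups. Same-numbered libraries deviated together in all 3 pairs for DC 22 h against DC 8 h (correlations of 0.116 to 0.399) and in 0 of 3 pairs in each of the other 7 comparisons. Replicates differed by more than sampling noise (chi-square per degree of freedom 7.96 to 79.6).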

Additional observations from a re-analysis of the deposited data

How the results depend on the processing

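Of 78 alternative values of the 6 tested results, 72 kept direction and side of the threshold, 4 passed it, 2 no longer did and 0 reversed. Nrgn at IF 8 h against DC 8 h (3.62, adjusted p 0.0592) passed with DESeq2 (3.71), with no low-count filter (3.61) and with the replicate block (3.50), and ranged from 2.98 to 4.15 with a replicate left out. Pou2af1 at IF 22 h no longer passed with replicate 1 alone, at 2.37 against unstimulated and 3.10 against DC 22 h; with single replicates left out, these ranged from 2.72 to 3.39 and from 3.31 to 4.44, and all passed. That alternative was added after seeing the data. It also moved Nrgn to 3.92 against unstimulated, 2.88 against DC 22 h and 3.75 against IF 8 h, and at IF 22 h against IF 8 h Cnih2 to 0.43 and Pou2af1 to 0.69. Why these values differ was not tested.

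Of 233 alternative values of the 18 described differences, 11 moved by more than the spread between replicates. These differences were not tested, so there was no call to lose, and some small ones changed sign. With a replicate left out, Nrgn at IF 8 h against unstimulated ranged from -0.48 to 0.62. Pou2af1 at DC 22 h against DC 8 h ranged from -0.63 to 0.77. With single replicates left out, Cnih2 against unstimulated ranged from 3.99 to 6.29 at IF 8 h, 2.50 to 4.81 at DC 8 h, 5.06 to 7.36 at IF 22 h and 3.29 to 5.99 at DC 22 h, and from 1.08 to 2.22 at IF 22 h against DC 22 h. Pou2af1 at IF 8 h against DC 8 h ranged from 2.20 to 3.19. With replicate 1 alone the shares of summed means in IF 22 h and in both IF groups were 77.7% and 83.7% for Nrgn, 38.1% and 66.2% for Cnih2 and 49.1% and 79.5% for Pou2af1. With group medians the share of Cnih2 in both IF groups was 77.8%.

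The replicate numbers paired libraries in DC 22 h against DC 8 h, where the block gave Cnih2 1.14 with an adjusted p of 0.719. In IF 8 h against DC 8 h, where the same-numbered libraries were no closer than others, the block gave Nrgn an adjusted p of 0.0474. The block changed no other call of the 3 genes.

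The 5 pathway lists held 25, 6, 25, 2 and 13 tested genes. Counts of calls over these lists, in the order IF 8 h, DC 8 h, IF 22 h and DC 22 h against unstimulated, were 7, 5, 9 and 7. Over all 10831 genes tested, the calls in the same order were 840, 739, 658 and 840. In the rest of this paragraph, counts refer to the lists unless all genes are named. With no other groups in the fit they were 11 for the first and 2 for the last. For DC 8 h they were 13 with library size alone, 8 with no filter and 12 with DESeq2. For IF 22 h there was 1 with replicate 1 alone. With a replicate left out these counts ranged from 3 to 5, 3 to 4, 3 to 11 and 1 to 6. IF 8 h against DC 8 h had 0, and 1 with library size alone, with no filter, with DESeq2 or at most with a replicate left out (0 to 1), where DC 22 h against DC 8 h had 0 to 1. IF 22 h against DC 22 h had 1, but 5 with no filter, 4 with DESeq2 and 0 with only those groups, with the block or with replicate 1 alone, and 0 to 6 with a replicate left out. IF 22 h against IF 8 h had 1, but 5 with no filter or DESeq2, 0 with library size alone, only those groups, the block or replicate 1 alone, and 0 to 7 with a replicate left out. Over all genes IF 22 h against DC 22 h had 263 calls, 706 with no filter, 563 with DESeq2, 70 with only those groups, 759 without IF 22 h replicate 1, 99 without replicate 2 and 90 without replicate 3. IF 8 h against DC 8 h had 72, and 215 with no filter, 195 with DESeq2 and 47 with only those groups. With single replicates left out, calls over all genes against unstimulated cells ranged from 419 to 573 (840 with all libraries) at IF 8 h, 404 to 665 (739) at DC 8 h, 283 to 947 (658) at IF 22 h and 454 to 984 (840) at DC 22 h. They ranged from 27 to 52 (72) for IF 8 h against DC 8 h, 24 to 541 (121) for IF 22 h against IF 8 h and 1 to 138 (52) for DC 22 h against DC 8 h, so the shares of all genes called move with single libraries. Scaling by library size alone shifted the median log2 difference from unstimulated cells by 0.21 to 0.33 and that of IF 22 h from DC 22 h by -0.13. Depth limits Nrgn at DC 8 h and Cnih2 in unstimulated cells, with 12 and 6 counts in all.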

Other observations

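The genes next to Nrgn, Cnih2 and Pou2af1 in the genome were examined for the same pattern. Of the 3 nearest counted genes on each side, 18 in all, 11 were tested. EdgeR called 0 of the 11 between IF and DC at 22 h, where 1.23% of all genes were higher and 1.2% lower, with 2 at an unadjusted p under 0.05 and 1 called by DESeq2, and their log2 differences ranged from -0.33 to 1.54. Against unstimulated cells at IF 22 h, where 2.63% of all genes were higher, it called 1, Ppp2r1b, a scaffold subunit of protein phosphatase 2A near Pou2af1, which had 40.4, 43.0 and 24.7 CPM unstimulated and 60.6, 64.5 and 72.0 CPM at IF 22 h. Its DC 22 h values of 40.5, 66.5 and 38.5 CPM overlapped both. With IF 22 h replicate 1 alone, the log2 difference of Ppp2r1b from unstimulated cells was 0.75 with an adjusted p of 0.452. Rab1b, upstream of Cnih2, and Tbrg1, near Nrgn, were expressed at over 100 CPM in unstimulated cells, where Cnih2 and Nrgn were at 0.350 and 5.63 CPM on average.

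Ccl9 and Klrk1 were picked for their likeness to Pou2af1 over these libraries, so their group order follows from that choice and is given as values only. Ccl9 had 2.20, 3.25 and 3.26 CPM unstimulated, 10.9, 9.95 and 10.2 CPM at IF 8 h and 12.5, 22.6 and 16.1 CPM at IF 22 h. With DC it had 2.18, 2.11 and 3.82 CPM at 8 h and 2.16, 2.88 and 2.65 CPM at 22 h, so all 6 IF libraries lay above the other 9. Klrk1 at IF 22 h had 69.6, 77.6 and 75.4 CPM against at most 41.1 CPM in any other library.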
